A study of Bos taurus with 16 samples.

Results

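Collagen chain genes are the genes that encode the chains of collagen, the main protein of the extracellular matrix. Members were taken as every listed gene whose NCBI gene ID carries a bovine symbol made of COL, a type number, A and a chain number, which gave 44 of 34109 genes. They were divided into 11 fibrillar chains, 6 basement membrane chains, 10 FACIT chains (fibril-associated collagens with interrupted helices) and 17 other chains. RNA was sequenced from the round muscle (hind leg) and the sirloin muscle (loin) of 8 newborn male Hanwoo calves, sampled right after birth. The cows of 4 control calves had been fed 100% of their nutritional requirement in mid to late pregnancy, and the cows of 4 treated calves 150%. Both muscles came from each calf, so that 16 libraries fell into 4 groups of 4. The diets were given to the cows and not to the calves. Per the study's methods, all calves were kept from colostrum and killed with intravenous pentobarbital, then bled, before sampling. The tissue was a whole piece of muscle with all the cells it holds.

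Collagen chains wind around each other in a helix, and the type of a collagen is set by the chains that enter it. Fibrillar collagens such as types I and III form the fibrils of the connective tissue around muscle fibres, muscles and tendons, and types V and XI take part in starting those fibrils. Type IV collagen is the network of the basement membrane, the sheet that covers every muscle fibre and capillary, and type VI forms beaded filaments beside it. FACIT collagens sit on the surface of fibrils. In muscle, most fibrillar collagen is made by fibroblasts rather than by the fibres.

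The libraries held 44473011 to 72446933 counts in round muscle and 44863173 to 72165291 in sirloin muscle. The deepest library of each muscle belonged to control replicate 2, whose library number is 5 in both. The TPM (the authors' transcript level, scaled for gene length and depth) of these libraries summed to exactly 1000000, and those of the other 14 libraries to between 999756 and 999858. Genes of the muscle fibre were high in every library, with a summed level of 11 markers between 62469 and 108073 TPM. The round library of control replicate 2 and the sirloin library of treated replicate 4 stood apart from the others in collagen genes and in markers of other cells, so results were also computed without those calves.

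Collagen RNA in the newborn muscle was mostly type IV, III, I and VI. The 6 genes with the highest mean level over the 16 libraries were COL4A1 (gene ID 282191) at 172 TPM, COL3A1 (510833) at 112, COL4A2 (508632) at 107, COL1A1 (282187) at 98.4, COL1A2 (282188) at 96.7 and COL6A1 (511422) at 70.6. Without the round library of control replicate 2 the means were 58.1 TPM for COL1A1 and 58.5 for COL1A2, and COL4A2 (104.5 TPM) was above COL3A1 (94.3). These 6 genes made up between 73.1% and 83.9% of all collagen TPM in a library. Of the 44 members, 21 had a mean of at least 1 TPM and 12 were below 0.1 TPM. COL9A1 and COL9A2, whose chains occur mainly in cartilage, had means of 0.0247 and 0.0165 TPM, and COL10A1, a marker of growth plate cartilage, had 0.0288 TPM. COL17A1, a chain of skin hemidesmosomes, had 0.0136 TPM. Counting error is large at such levels: 13 members had no count in at least 1 library.

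All collagen genes together took 0.0582% to 0.0896% of the TPM in 7 of the 8 round libraries and 0.314% in the round library of control replicate 2. In sirloin muscle the share was 0.0461% to 0.0659% in 6 libraries, 0.0906% in control replicate 2 and 0.107% in treated replicate 4. The libraries also differed in which class was the larger. Basement membrane chains made up 38.0% to 46.1% of collagen TPM in 6 round libraries, against 12.6% in control replicate 2 and 28.1% in treated replicate 4. Fibrillar chains made up 60.3% in the round library of control replicate 2 and 56.1% in that of treated replicate 4, and 26.3% to 38.9% in the others. The same 2 calves had the highest fibrillar shares in sirloin muscle, at 51.7% and 52.7%, where the other calves had 20.1% to 30.4%.

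**Figure D1:**
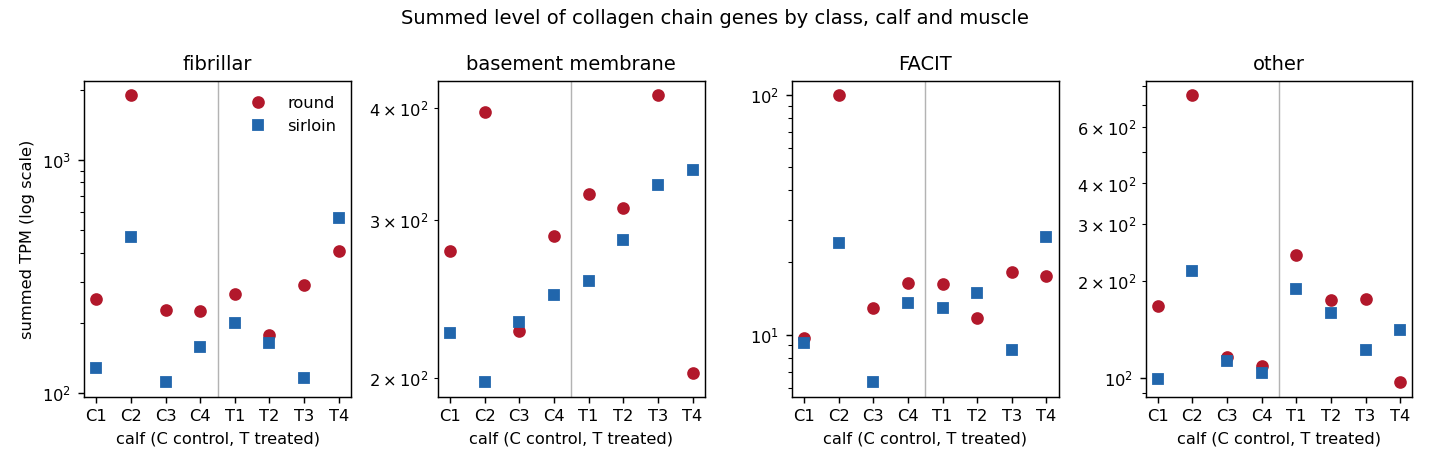
Summed TPM (log axis) of the members of each collagen class in the round (circles) and sirloin (squares) muscle of each calf, with C1 to C4 the control and T1 to T4 the treated replicates. The round library of C2 is at 1891 TPM for fibrillar chains, where the other round libraries lie between 177 and 404, and the basement membrane sums spread less.

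The summed fibrillar level in round muscle was 254, 1891, 227 and 225 TPM in control replicates 1 to 4 and 266, 177, 290 and 404 TPM in treated replicates 1 to 4. Treated replicate 2 was below every control calf, the other treated calves lay between the lowest and the highest control calf, and control replicate 2 was 7.44 times the median of the other 7 round libraries. In sirloin muscle the fibrillar sums were 128, 469, 111 and 157 TPM in control calves and 200.5, 163, 115 and 565 TPM in treated calves. Control replicate 2 and treated replicate 4 were the high ones there. The basement membrane sum of control replicate 2 was 396 TPM in round muscle, below the 413 TPM of treated replicate 3, and 198 TPM in sirloin muscle, the lowest of the 8 sirloin libraries.

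The round library of control replicate 2 was the highest of the 8 round libraries for 27 of 40 members with a count of at least 10 in some round library (67.5%), against 19.4% of all such genes. It was the highest for 10 of 11 fibrillar, 11 of 14 other, 4 of 9 FACIT and 2 of 6 basement membrane members. COL1A1 and COL1A2, the chains of type I collagen, were at 703 and 669 TPM there, 10.7 and 11.4 times the median of the other round libraries. COL12A1, a FACIT chain of tendon and muscle fascia, was at 49.3 TPM against at most 7.30 in the others. COL11A1 was 31.7 times the median of the others, COL6A6 31.3 times and COL8A2 26.4 times. COL4A1 and COL4A2, by contrast, were 1.37 times that median, and COL4A4 was 0.258 times.

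Markers of connective tissue were high in the same library. The summed level of 8 tendon markers was 219 TPM there and 20.03 to 47.2 TPM in the other round libraries, and all 8 were highest there. FMOD, a fibril-binding proteoglycan, was at 59.8 TPM against 1.42 to 6.43, and TNMD, a marker of tendon cells, at 3.45 against at most 0.332. The 8 fibroblast markers summed to 1608 TPM against 449 to 724, and 7 of the 8 were highest there. Smooth muscle and pericyte markers summed to 341 TPM against 154 to 337, with 5 of the 8 highest there. Endothelial markers summed to 121 TPM against 67.5 to 123, with 2 of the 8 highest there. Of 8 cartilage markers 2 were highest in that library, and their sum was 2.32 TPM against 0.819 to 3.93 in the others. ACAN, the main cartilage proteoglycan, was at 0.991 TPM there and at most 0.0715 in any other library, while the highest sum, in treated replicate 3, came mostly from CNMD at 3.02 TPM. In the sirloin library of treated replicate 4 the 8 adipocyte markers summed to 4120 TPM against 67.1 to 126 in the other sirloin libraries, and the fibroblast markers to 1005 TPM against 334 to 692. The 8 endothelial markers summed to 198 TPM in the same library against 78.8 to 99.4, with 7 of the 8 highest there, and COL4A1 and COL4A2 were at their sirloin highest in it too. The part of these markers in the collagen values was not tested. In whole muscle, fewer cells of a type and less RNA per cell cannot be told apart.

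**Figure D2:**
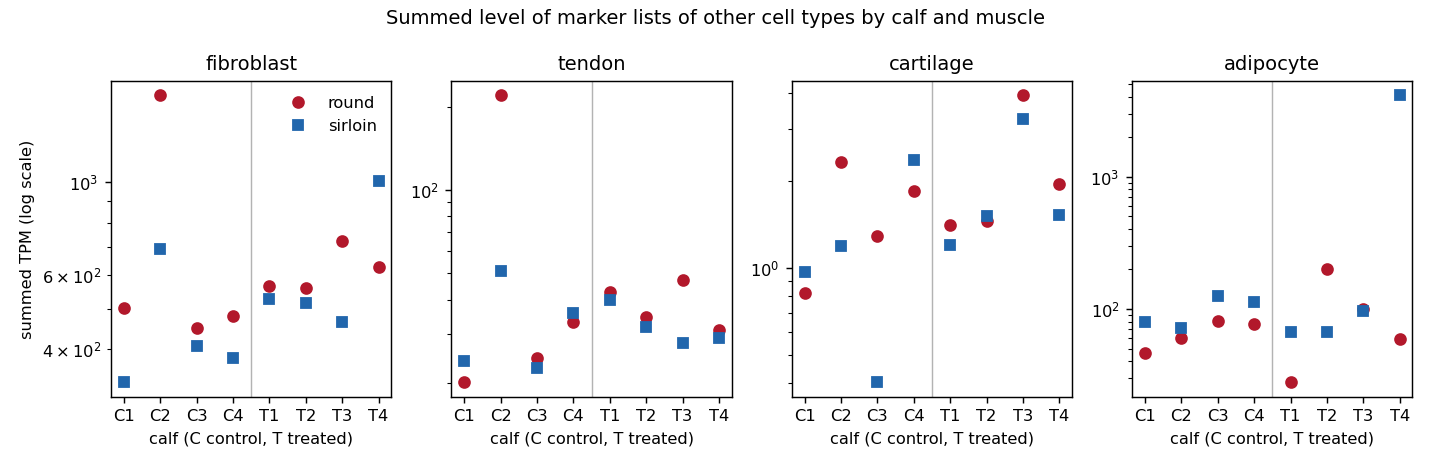
Summed TPM (log axis) of 8 fibroblast, 8 tendon, 8 cartilage and 8 adipocyte markers in the round (circles) and sirloin (squares) muscle of each calf, C1 to C4 control and T1 to T4 treated. C2 in round muscle is the highest for tendon (219 TPM) and fibroblast markers (1608 TPM), and T4 in sirloin muscle the highest for adipocyte markers (4120 TPM).

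The sirloin libraries repeated part of this pattern. Control replicate 2 was the highest sirloin library for 18 of 40 members (45.0%), against 17.4% of all genes, and treated replicate 4 for 11 of 40 (27.5%), against 19.2%. The type I chains were high in both. COL1A1, COL1A2 and COL3A1 were 3.90, 4.82 and 2.48 times the median of the other sirloin libraries in control replicate 2. In treated replicate 4, COL1A1 and COL1A2 were 3.47 and 4.35 times that median. Some other genes differed more between these 2 libraries. In control replicate 2, COL2A1 was 11.7 times, COL8A2 21.1 times and COL6A6 23.8 times the median of the other sirloin libraries. In treated replicate 4 these 3 genes were 1.71, 1.30 and 0.479 times that median, while COL3A1 was 4.60 times and COL13A1 3.44 times. The sum of tendon markers in the sirloin library of control replicate 2 was 50.7 TPM, against 22.6 to 39.8 in the other sirloin libraries. Only 2 of the 8, TNMD and FMOD, were highest in that library, and 3 were highest in treated replicate 4.

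**Figure D3:**
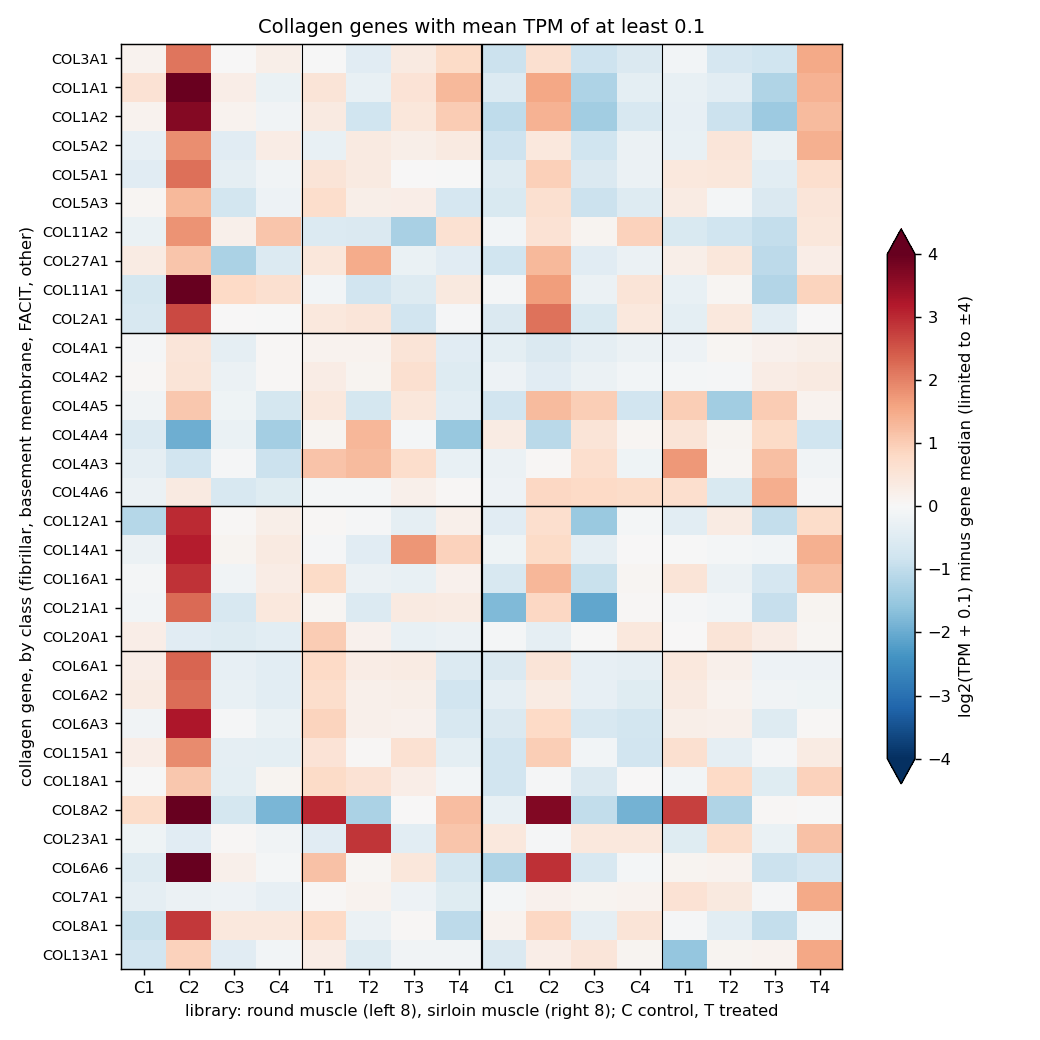
Levels of the 32 collagen genes with a mean of at least 0.1 TPM, as log2(TPM + 0.1) minus the median of the gene over 16 libraries (red above, blue below, colours limited at 4 either way). The column of C2 in round muscle is red in most fibrillar, FACIT and type VI rows, and COL8A2 is red for C2 and T1 in both muscles.

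No collagen gene passed an adjusted p of 0.05 for maternal diet in round muscle (edgeR's quasi-likelihood test, Benjamini-Hochberg over 21677 genes, of which 4 passed, 0.0185%). At an unadjusted p under 0.05 there were 6 of 44 members, against 4.41% of all genes, 2 of them higher (1.92% of all genes) and 4 lower (2.49%) in treated calves. DESeq2 also called none, with 7 members at an unadjusted p under 0.05 (3.98% of all genes). Without control replicate 2, edgeR had 2 of 44 members at an unadjusted p under 0.05, beside 1145 of 21283 genes. Of these members 1 was higher and 1 lower in treated calves. No member had treated and control calves without overlap in TMM-normalised counts, where 0.687% of all genes had treated calves above and 1.07% below.

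The direction of the collagen genes under the diet in round muscle turned on control replicate 2. The fitted log2 fold change of treated to control was negative in 31 of 44 members with all calves, with a median of -0.61, beside a median of 0.02 over all genes. Without that calf it was negative in 13 of 44, with a median of 0.21 beside 0.06 over all genes, and 22 members changed sign. Among the 21 members with a mean of at least 1 TPM, 18 were negative with the calf and 3 without. By class, the median with all calves was -1.32 in the fibrillar chains, -0.28 in the FACIT chains, -0.72 in the other chains and 0.10 in the basement membrane chains.

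COL1A1 in round muscle was at 68.1, 703, 55.1 and 37.9 TPM in control and 65.6, 36.9, 66.6 and 113 TPM in treated replicates 1 to 4. A single control calf lay above all treated calves, and the other 3 lay among them. The log2 fold change was -1.61 ± 0.80 (SE, adjusted p = 0.864), and 0.22 ± 0.39 (adjusted p = 0.913) without control replicate 2. COL3A1 (96.1, 383, 86.7 and 101 TPM in control, 86.3, 62.6, 110.3 and 148 TPM in treated calves) had -0.70 ± 0.45 with the calf and -0.07 ± 0.33 without it. COL4A1, with 168, 245, 135 and 179 TPM against 190.3, 193, 248 and 128 TPM, had -0.02 ± 0.27 and 0.03 ± 0.28. The SE of COL4A1 was the smallest of these 3 genes.

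COL11A1 (287013), a chain that starts fibrils and is named in the study's text, was at 0.0390, 3.47, 0.291 and 0.254 TPM in control and 0.1096, 0.0319, 0.0599 and 0.200 TPM in treated calves. Control replicate 2 lay far above every other calf, and the treated calves overlapped the other 3 control calves, with treated replicate 2 the lowest. Its log2 fold change was -3.15 ± 1.05 (unadjusted p = 0.0116, adjusted p = 0.864), and -1.07 ± 0.75 (unadjusted p = 0.181) without control replicate 2. COL12A1 went from -1.63 ± 0.66 (unadjusted p = 0.0306) to -0.20 ± 0.30 (unadjusted p = 0.503) on leaving out the same calf.

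COL4A3 (317711), a chain of specialised basement membranes, had the smallest p of the members for diet in round muscle and did not rest on that calf. Its levels were 0.317, 0.218, 0.415 and 0.193 TPM in control and 1.08, 1.19, 0.772 and 0.339 TPM in treated calves. Treated replicates 1 to 3 were above every control calf, and treated replicate 4 lay among them. The log2 fold change was 1.44 ± 0.47 (unadjusted p = 0.0099, adjusted p = 0.864) and between 1.24 and 1.68 on leaving out each calf in turn. COL4A4, its neighbour in the naming table, had 1.11, 0.358, 1.39 and 0.591 TPM in control and 1.82, 4.35, 1.56 and 0.521 TPM in treated calves, so that the groups overlapped more.

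**Figure D4:**
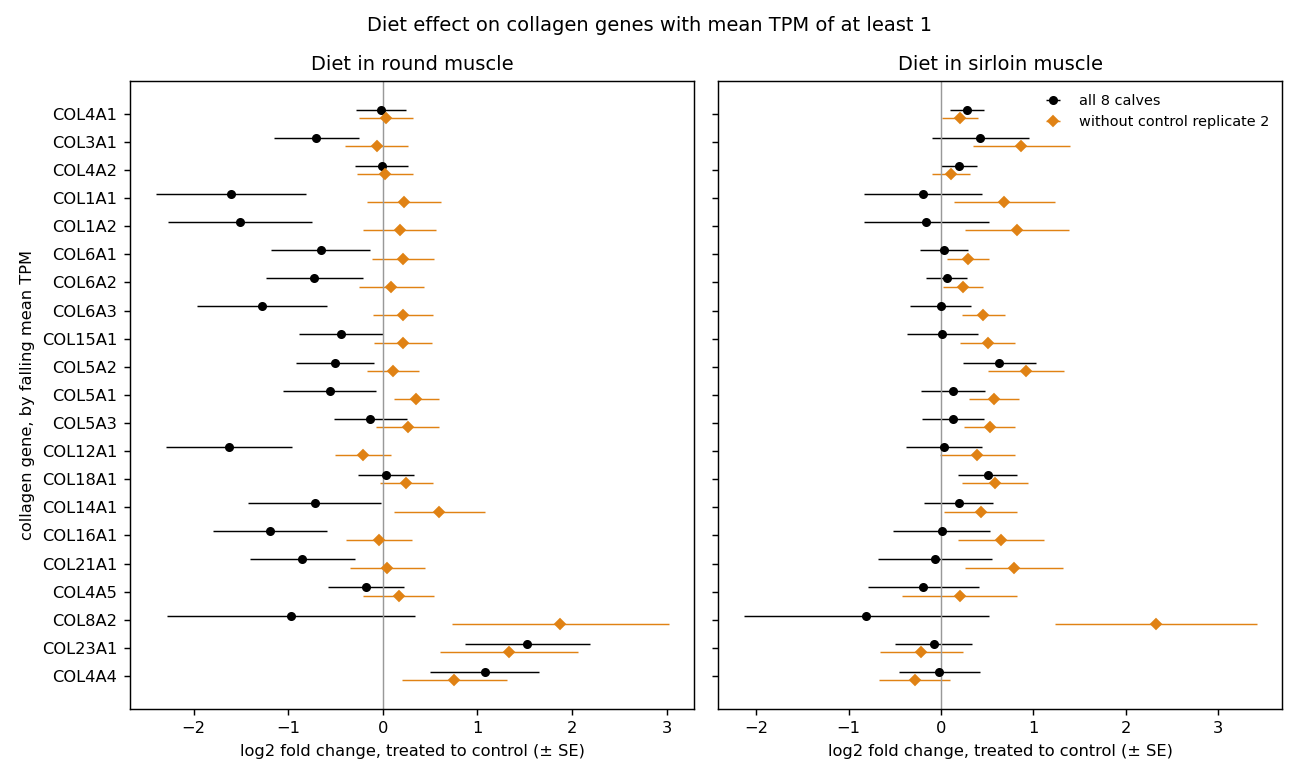
Log2 fold change (± SE) of treated to control calves for the 21 collagen genes with a mean of at least 1 TPM, in round and sirloin muscle, with all 8 calves (circles) and without control replicate 2 (diamonds). In round muscle 18 of the 21 circles but 3 of the diamonds are below 0.

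No collagen gene passed for diet in sirloin muscle either (2 of 21776 genes passed, 0.00918%), and DESeq2 called none. At an unadjusted p under 0.05 there were 3 members with edgeR, against 3.91% of all genes, and 2 with DESeq2 (3.21%). No member had diets without overlap in TMM-normalised counts, where 0.859% of all genes had treated calves above and 0.822% below. The log2 fold change was negative in 22 of 44 members, with a median of 0.00 beside 0.03 over all genes. Without control replicate 2 it was negative in 12 of 43 members, with a median of 0.43 beside 0.07 over all genes. Without treated replicate 4 the median was -0.25 beside -0.00354 over all genes. The middle of the members thus lay on either side of 0 depending on which of these calves was left out.

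COL11A2 (515435), a fibril-starting chain like COL11A1, was at 0.658, 1.10, 0.768 and 1.42 TPM in the sirloin muscle of control and 0.432, 0.362, 0.318 and 1.00 TPM in that of treated calves. Treated replicates 1 to 3 were below all control calves and treated replicate 4 was not. The log2 fold change was -1.05 ± 0.42 (unadjusted p = 0.0305, adjusted p = 0.876). In round muscle it was -1.32 ± 0.54 (unadjusted p = 0.0309), with 0.576, 2.73, 0.830 and 1.63 TPM in control and 0.461, 0.445, 0.230 and 1.13 TPM in treated calves. COL8A1, a short chain network collagen, was at 0.375, 0.662, 0.234 and 0.513 TPM in control and 0.318, 0.222, 0.119 and 0.299 TPM in treated sirloin, with -1.04 ± 0.45 (unadjusted p = 0.0418). COL9A2 had no count in any control sirloin library and at most 0.0693 TPM in treated ones, so no fold is given.

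COL1A1 in sirloin muscle was at 31.3, 133, 19.4 and 34.5 TPM in control and 37.3, 34.2, 19.8 and 119 TPM in treated calves. Each diet had a calf far above its other 3, and the log2 fold change was -0.19 ± 0.64. COL3A1 was at 47.2, 135, 49.0 and 58.5 TPM in control and 79.7, 54.3, 49.5 and 249.7 TPM in treated calves, with 0.43 ± 0.52. COL4A1 was at 131, 117, 135 and 148 TPM in control and 151, 182, 194 and 206 TPM in treated calves. Although the treated calves were all above the control calves on this scale, they overlapped in TMM-normalised counts, and its log2 fold change of 0.28 ± 0.19 did not pass (adjusted p = 0.876).

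No collagen gene passed for a difference of the diet effect between the muscles (edgeR's interaction test, 0 of 22877 genes passed, 637 genes at an unadjusted p under 0.05 with edgeR and 290 with DESeq2, which also called none). COL22A1 was the only member at an unadjusted p under 0.05 (2.78% of all genes), and COL3A1 was not (1.17 ± 0.76, unadjusted p = 0.145). COL22A1, a chain of tissue junctions such as that of muscle and tendon, had 0.223, 0.0106, 0 and 0.0697 TPM in control round and 0, 0.0348, 0 and 0 TPM in treated round libraries. In sirloin it had 0.0212, 0.0385, 0 and 0 TPM in control and 0.0302, 0.0536, 0 and 0.269 TPM in treated libraries. Such values rest on few counts. With the calf as a replicate block 5 members had an unadjusted p under 0.05, against 3.78% of all genes, and none passed the adjustment.

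Collagen RNA was lower in sirloin than in round muscle in most calves, without any collagen gene passing the adjustment (14 of 22877 genes passed, 0.0612%). The log2 difference of the summed collagen TPM, sirloin minus round, was -0.618, -1.79, -0.337 and -0.290 in control and -0.357, -0.112, -0.641 and 0.572 in treated replicates 1 to 4. It was negative in 7 of 8 calves, with treated replicate 4, the calf with adipocyte markers in its sirloin library, as the exception. The fibrillar sum was lower in sirloin in 7, the basement membrane sum in 6, the FACIT sum in 6 and the sum of the other chains in 7 of 8 calves. The fitted log2 fold change was negative in 31 of 44 members, with a median of -0.37 beside -0.00422 over all genes. Without control replicate 2 it was negative in 32 members, with a median of -0.26 beside -0.00922 over all genes. Among the 21 members of at least 1 TPM it was negative in 19, as with that calf. By class, the median with all calves was -0.37 in the fibrillar, -0.55 in the FACIT and -0.44 in the other chains. In the basement membrane chains it was 0.34, with 2 of 6 negative.

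At an unadjusted p under 0.05, 7 members differed between the muscles, against 6.33% of all genes, 2 higher (3.02% of all genes) and 5 lower (3.3%) in sirloin. With the calf as a replicate block, which compares the muscles within each calf, there were 16 (11.2% of all genes), 3 higher (5.56%) and 13 lower (5.6%), while 109 genes (0.476%) and no member passed the adjustment. The smallest adjusted p of a type I chain was 0.0696, for COL1A2, in that fit. Without control replicate 2 the blocked fit had 8 such members, beside 9.35% of all genes. Leaving out only the round library of control replicate 2 gave 2 members, beside 5.71% of all genes. The median was then -0.03 beside 0.02 over all genes.

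COL1A1 was lower in sirloin in all 8 calves in TMM-normalised counts, as were 1.15% of all genes, and in 7 of 8 by TPM, where treated replicate 4 had 119 TPM in sirloin and 113 in round. In the edgeR fit without the calf block, its log2 fold change of sirloin to round was -1.27 ± 0.58 (adjusted p = 0.777). It was -0.80 ± 0.36 without control replicate 2. That fit ignores that both muscles came from the same calf, and the SE and p below for COL6A3, COL7A1 and COL4A6 are from it too. COL6A3, which adds a long chain to type VI filaments, had 14.9, 156, 15.8 and 13.7 TPM in control and 30.6, 18.9, 18.7 and 10.6 TPM in treated round libraries. In sirloin it had 10.9, 28.8, 10.5 and 9.90 TPM in control and 19.6, 19.0, 11.4 and 17.1 TPM in treated calves. Its log2 fold change was -1.004 ± 0.43 (adjusted p = 0.760), and -0.48 ± 0.20 without control replicate 2.

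COL7A1 (507133), the chain of anchoring fibrils, was the only member higher in sirloin in all 8 calves, as were 1.34% of all genes. Round muscle had 0.400, 0.441, 0.449 and 0.409 TPM in control and 0.563, 0.601, 0.451 and 0.357 TPM in treated calves. Sirloin muscle had 0.503, 0.621, 0.590 and 0.609 TPM in control and 0.858, 0.742, 0.514 and 1.72 TPM in treated calves. The control calves of the 2 muscles did not overlap, the treated ones did, and the log2 fold change was 0.63 ± 0.23 (unadjusted p = 0.0142, adjusted p = 0.695). COL4A6, a chain of smooth muscle basement membranes, had 0.66 ± 0.30 (unadjusted p = 0.0405), with 0.254 to 0.599 TPM in round and 0.263 to 1.40 TPM in sirloin muscle.

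With control replicate 2 included, collagen genes differed between the calves of a diet more often than genes in general. Without that calf, their share in edgeR was near that of all genes. The F test of calf within diet, in which the 2 muscles of a calf serve as its pair of samples, called 19 of 44 members at an adjusted p of 0.05, beside 18.5% of all genes. Among genes with enough counts (edgeR's filterByExpr), it called 20 of 39 members, beside 28.6% of 16518 genes. The 19 members called without this filter were 7 of 11 fibrillar, 2 of 6 basement membrane, 3 of 10 FACIT and 7 of 17 other chains. Without control replicate 2 the unfiltered test called 4 of 44, beside 8.3% of all genes: COL8A2, COL11A2, COL23A1 and COL3A1. By DESeq2 the counts were 24 members with that calf and 13 without it, beside 34.2% and 23.8% of all genes. COL1A1 had an adjusted p of 0.00335 with control replicate 2 and 0.0854 without it in edgeR, while DESeq2 called it both ways.

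COL8A2 (539415), a chain of short network collagen known from blood vessels and the cornea, differed most between calves and did so in both muscles alike. In round muscle it was at 0.748, 10.9, 0.213 and 0.0429 TPM in control and 3.97, 0.1097, 0.411 and 1.09 TPM in treated calves. In sirloin muscle it was at 0.307, 6.47, 0.158 and 0.0360 TPM in control and 3.28, 0.118, 0.424 and 0.398 TPM in treated calves. Control replicate 2 and treated replicate 1 were the highest and control replicate 4 the lowest in both muscles. The F statistic was 72.1 (adjusted p = 3.96e-05), and 29.6 (adjusted p = 0.00168) without control replicate 2.

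COL11A2 kept a like order in both muscles, with control replicates 2 and 4 and treated replicate 4 the highest and treated replicate 3 the lowest in each (F = 10.1, adjusted p = 0.00844). It was not among the called members when treated replicate 4 was left out, and COL23A1 was not when treated replicate 1 was. COL6A6, a type VI chain, was at 0.11004, 6.73, 0.244 and 0.183 TPM in control and 0.572, 0.215, 0.311 and 0.0846 TPM in treated round libraries. In sirloin it was at 0.0300, 2.19, 0.0920 and 0.188 TPM in control and 0.222, 0.229, 0.0665 and 0.0901 TPM in treated calves. A single calf was far above the others in both muscles, and COL6A6 had F = 27.3 with it (adjusted p = 0.000552) and 3.24 without (adjusted p = 0.189). COL2A1, COL16A1 and COL21A1 also passed with control replicate 2 and not without it in edgeR, while DESeq2 called COL16A1 and COL21A1 without that calf, and edgeR called COL16A1 without that calf and treated replicate 4. COL4A1 and COL4A2, the most abundant chains with COL3A1, did not pass with any calf left out.

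**Figure D5:**
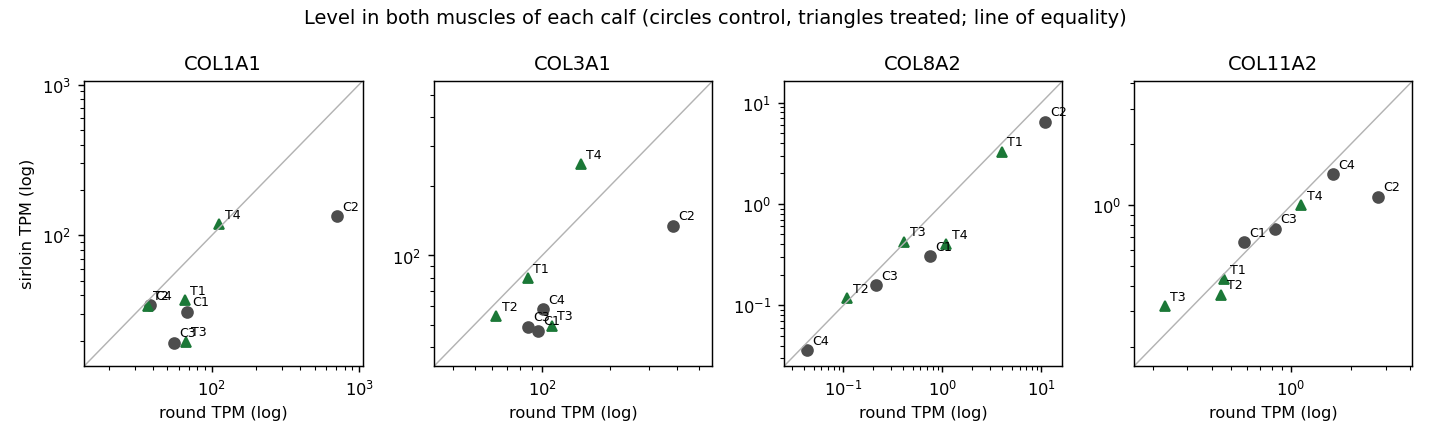
TPM in sirloin against TPM in round muscle of each calf (log axes, line of equality) for COL1A1, COL3A1, COL8A2 and COL11A2, with circles for control (C1 to C4) and triangles for treated calves (T1 to T4). COL8A2 spans 0.0360 to 10.9 TPM with the calves near the line, while COL1A1 of C2 is at 703 TPM in round and 133 TPM in sirloin muscle.

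The ratios of chains that assemble together varied less than their levels. The TPM ratio of COL1A1 to COL1A2, the chains of type I collagen, had a median of 0.998 over the 16 libraries and a range of 0.790 to 1.204. That of COL4A1 to COL4A2, which lie next to each other in the genome and form the common type IV network, had a median of 1.56 and a range of 1.46 to 1.83. The ratio of COL6A1 to COL6A3 ran from 1.77 to 4.43, and that of COL3A1 to COL1A1 from 0.544 to 2.66, with the lowest value of both in the round library of control replicate 2. COL1A1 to COL1A2 was not apart there, at 1.05. TPM ratios of different genes depend on the gene length the authors used, so their level is less certain than their spread.

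None of the 12 tests of these 4 ratios for diet in each muscle and for muscle passed (two-sided exact permutation tests). The smallest adjusted p was 0.457, shared by COL3A1 to COL1A1 and COL4A1 to COL4A2 between the muscles and COL4A1 to COL4A2 for diet in sirloin. The log2 ratio of COL3A1 to COL1A1 was 0.36 higher in sirloin than in round muscle, in 6 of 8 calves (unadjusted p = 0.102). The smallest p the design allows is 0.0286 for diet and 0.00781 for muscle.

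The genes that fold, process and bind collagen were counted in 3 lists. None of 20 measured folding and modification genes (such as P4HA1, a prolyl hydroxylase, and SERPINH1, the collagen chaperone), 13 processing and crosslinking genes (such as BMP1, which cuts the procollagen end, and LOX, which crosslinks fibrils) or 8 receptors passed for diet in either muscle, for muscle or for their interaction. For diet in round muscle, 1 processing gene and 1 receptor had an unadjusted p under 0.05, both lower (2.49% of all genes), and the median log2 fold changes of the 3 lists were -0.20, -0.37 and -0.54. For calf within diet, 9 of 20, 6 of 13 and 3 of 8 passed in the unfiltered test with all calves, beside 18.5% of all genes. With filterByExpr 28.6% of 16518 genes passed, and the lists were not counted in that fit or without control replicate 2. In the round library of control replicate 2, 11 of 13 processing genes, 13 of 20 folding genes and 4 of 8 receptors were at their highest TPM among round libraries. These list counts had no minimum count. By TMM-normalised counts, 19.4% of all genes with a count of at least 10 in some round library were highest there, so the 2 measures differ. PCOLCE, which enhances the cutting of procollagen, was at 109 TPM there against 12.9 to 34.2 in the other round libraries, and SERPINH1 at 206 against 29.6 to 142.

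Some members share sequence space with other genes. In the naming table, 19 of the 44 members overlap another gene, among them COL1A2, COL11A1, COL11A2, COL7A1 and COL4A4, and reads from such a pair cannot be told apart where counting ignored the strand, which the sources used here do not settle. COL4A3 with COL4A4, COL4A1 with COL4A2, COL4A5 with COL4A6, COL3A1 with COL5A2, COL6A1 with COL6A2, COL6A5 with COL6A6 and COL9A1 with COL19A1 are neighbours there.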

How the data were processed

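Per the labels, total RNA of round and sirloin muscle was sequenced after poly(A) selection, and the study's methods name a stranded kit with removal of ribosomal and globin RNA instead. The authors deposited whole-number read counts per NCBI gene ID without normalization, and TPM values scaled by gene length and depth. The submitters' processing notes name FastQC, Trimmomatic, STAR, featureCounts, DESeq2 and build ARS-UCD1.2, and the study's methods name HISAT2, Bowtie2 and StringTie. The authors' comparison tables hold fold changes and p-values and were not used. Symbols were taken from a RefSeq table of another build (ARS-UCD2.0) and found for 30762 of 34109 gene IDs (90.2%). Its gene positions served only to find overlapping and neighbouring members, and none is printed. No sequences were used here.

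Counts were tested with edgeR 4.0.16 (TMM, quasi-likelihood, genes with at least 1 count in any library entered) in R 4.3.3, with an adjusted p threshold of 0.05 over all genes. Diet was tested within each muscle, and muscle and interaction over 16 libraries without a calf term. Calf within diet was tested by an F test of the calf coefficients. Alternatives were DESeq2 1.42.0, limma 3.58.1 (voom, and log2 of TPM plus 0.1 or 1), RLE and upper-quartile factors, filterByExpr, replicate blocks, 1 fit for all libraries and leaving out each calf. SE is the log2 fold change divided by the root of the F statistic. Chain ratios were tested by exact permutation with SciPy 1.17.1. The scripts were tested on simulated data, where the unfiltered calf test also called some unchanged genes of low count and the filtered test few, so both are given. The 2 muscles of a calf were paired by the number they share in the labels. After group means were removed, they correlated at 0.243 to 0.597, and the muscles of different calves at -0.342 to 0.278. These ranges overlap, so the correlations alone do not settle every pair. Replicate numbers shared across the diets did not pair calves (-0.156 to 0.189). Nothing in the labels says that each library is more than 1 piece of muscle of a calf, so p-values measure the spread between these samples. The members, lists and tests were chosen with earlier results of these data known. Genes with values per sample were the 6 of highest mean TPM, in each comparison those past the threshold (at most 8) or else the 3 of smallest p, and COL11A1. COL4A4, COL6A2, COL13A1, COL23A1 and COL11A2 in other comparisons were added after their values were seen.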

Additional observations from a re-analysis of the deposited data

Results flagged for a closer look

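Levels and ratios of the named collagen genes, the class sums and the 4 chain ratios were searched for a calf far from the other 3 of its group, by the gap to the nearest calf over the whole range of the group (Dixon's test at its 95% critical value). Of 119 groups with any spread 35 held such a calf. Many of the genes were named for a small p in the calf or diet tests of these same data. The items also share calves and are not independent, so no chance rate is set beside this count.

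The round library of control replicate 2 was the high one in 17 of the 35. Its gap was 0.927 of the range for COL11A1, 0.901 for COL12A1, 0.952 for COL16A1, 0.955 for COL1A1, 0.983 for COL1A2, 0.836 for COL21A1, 0.935 for COL2A1, 0.952 for COL3A1, 0.892 for COL6A1, 0.985 for COL6A3, 0.98 for COL6A6, 0.877 for COL8A1 and 0.935 for COL8A2. For the sums it was 0.982 for fibrillar, 0.925 for FACIT, 0.91 for other and 0.951 for all members. COL4A1, COL4A2 and the basement membrane sum were not among them. The tendon and fibroblast markers were highest in that library too, and their part was not tested.

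The sirloin library of the same calf was the high one in 10, with gaps of 0.868 for COL1A1, 0.887 for COL1A2, 0.871 for COL3A1, 0.834 for COL6A1, 0.948 for COL6A3, 0.927 for COL6A6 and 0.958 for COL8A2, and of 0.87 for the fibrillar sum, 0.881 for the other sum and 0.862 for all members. The sirloin library of treated replicate 4 was the high one in 3, with 0.833 for COL11A2, 0.849 for COL3A1 and 0.831 for the sum of all members. In the remaining 5, the gap was 0.903 for COL8A2 (sirloin, treated replicate 1, high), 0.888 for COL4A6 (sirloin, control replicate 1, low at 0.374 TPM), 0.91 for the ratio of COL4A1 to COL4A2 (sirloin, treated replicate 2, high at 1.83), and 1 for COL22A1 (round, treated replicate 2) and for COL9A2 (round, treated replicate 1), where the other 3 calves of the group were at 0.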

How the results depend on the processing

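No collagen gene passed for diet in round or sirloin muscle, for muscle or for their interaction under any alternative run (DESeq2, limma-voom, limma on log2(TPM + 0.1) and log2(TPM + 1), RLE or upper-quartile factors, filterByExpr, replicate blocks, 1 fit for all libraries, or leaving out a calf). The replicate block by number for diet, which pairs no calves, left 0 members passing in either muscle. At an unadjusted p under 0.05, limma on log2(TPM + 1) had 1 member for diet in round, 2 for diet in sirloin and 2 for muscle, all of them higher. Over all genes, these 3 fits had 797 of 21677, 1097 of 21776 and 1400 of 22877. Most of those genes were higher too (510, 952 and 1021). The count for calf within diet ran from 4 to 22 of 44 on leaving out each calf. The 4 was reached without control replicate 2 (1871 of 22545 genes) and the 22 without treated replicate 3 (3577 of 22601 genes). It was 10 with limma on log2(TPM + 1) (3334 of 22877 genes). Counts without control replicate 2 were also added after seeing the data. They were 4 of 36 members with filterByExpr (2079 of 16214 genes) and 3 of 44 with limma-voom (1606 of 22545 genes). Without treated replicate 4 as well, edgeR called 4 of 44 (2058 of 22167 genes).

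Some fold changes changed sign, none of them past the threshold, and the cause was not tested. The farthest from 0 with all calves were COL1A1 (-1.61) and COL1A2 (-1.51) for diet in round muscle, which were positive only without control replicate 2, and COL1A1 (1.45) and COL1A2 (1.39) for the interaction. With limma on log2(TPM + 0.1) and log2(TPM + 1), diet in round muscle had 0.0541 and 0.0538 for COL4A1 and 0.0345 for COL4A2 with both, and diet in sirloin had 0.0245 and 0.0230 for COL1A1 and 0.0660 and 0.0639 for COL1A2. Without the round library of control replicate 2 (added after seeing the data), the interaction was -0.435 for COL1A1, -0.360 for COL1A2 and -0.208 for COL6A1. On leaving out each calf, the log2 fold change for diet in round muscle ran from -1.95 to 0.221 for COL1A1, -1.82 to 0.177 for COL1A2, -0.204 to 0.0892 for COL4A1, -0.228 to 0.122 for COL4A2 and -0.909 to 0.217 for COL6A1. In sirloin it ran from -0.989 to 0.688 for COL1A1, -1.0028 to 0.827 for COL1A2, -0.396 to 0.872 for COL3A1 and -0.119 to 0.298 for COL6A1. The log2 ratio of COL1A1 to COL1A2 ran from -0.0252 to 0.164 for diet in round, -0.120 to 0.0325 for diet in sirloin and -0.0338 to 0.0431 for muscle, where counts in place of TPM gave -0.00190. For diet in round muscle it ran from -0.283 to 0.481 for COL3A1 to COL1A1 and from -0.0158 to 0.0582 for COL4A1 to COL4A2, and for diet in sirloin from -0.179 to 0.0586 for COL6A1 to COL6A3. The summed collagen log2 difference ran from -0.529 to 0.280 for diet in round, 0.133 to 0.561 for diet in sirloin and -0.565 to -0.275 for muscle. The members below 0.1 TPM rest on few counts, and calls among them differed between tools: limma-voom called COL10A1, COL28A1 and COL6A5 for calf within diet, and edgeR did not.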

Other observations

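COL23A1 (613347), a membrane-bound collagen chain, was not among the genes selected by the naming rule and was noted after its values were seen. It was at 8.47 TPM in the round muscle of treated replicate 2, where the other round libraries had 0.746 to 2.41 TPM. In the sirloin muscle of that calf it was at 1.80 TPM, below the 2.51 TPM of treated replicate 4. Its log2 fold change for diet in round muscle was 1.53 ± 0.66 (edgeR, unadjusted p = 0.0398, adjusted p = 0.864), and 0.40 at the lowest on leaving out 1 calf.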
